A study of Glycine max with 12 samples.

Results

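Among soybean roots colonized by Rhizophagus irregularis, 1 of the 3 libraries lacked much of the transcript of a set of genes that were abundant in the other libraries of its group. The set was chosen from these Ri libraries. A gene had to reach 5 FPKM (fragments scaled by gene length and by library size) in both Ri replicate 2 and Ri replicate 3, which 19343 of the 49551 genes in the tables did. These were ranked by the lower of those values divided by the value in Ri replicate 1 plus 0.1 FPKM, and the 150 highest were taken. The levels in the Ri libraries, and the gap between them, are therefore a description of how the genes were chosen and were not tested. The roots of the other groups played no part in the choice, and the results below are about them.

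Roots of soybean (Glycine max) were sequenced in 12 libraries, 3 in each of 4 groups. NM roots received no fungus, Ri roots carried R. irregularis, and Ga-H and Ga-L roots carried Glomus aggregatum with high or low colonization. The labels name no cultivar, age, growth condition or separate plants behind the libraries, so the p-values reflect only how much these libraries spread, some of which may be technical. Expected counts summed to between 10182200 and 11054762 per library.

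Arbuscular mycorrhizal fungi grow between and into the cells of the root cortex, where they form branched arbuscules and give the plant phosphate in return for sugars and lipids. Colonization spreads along a root system unevenly, and one root holds uncolonized, young and collapsing infection sites side by side. A whole-root library averages over all of them. In such bulk samples, fewer cells of a type and less RNA per cell cannot be told apart. The deposited tables name genes by ID alone, and none of the 59048 entries of the RefSeq gene table used here (assembly Glycine_max_v4.0) carries such an ID. The genes are therefore given without names, functions or sequences, and no list of marker or pathway genes could be matched to them.

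Over all genes that reached 1 FPKM somewhere, on log2(FPKM + 0.1), Ri replicate 1 correlated with the other libraries of its group at a mean r of 0.885 and with the libraries of Ga-H at 0.926. The corresponding values were 0.906 and 0.905 for Ri replicate 2 and 0.923 and 0.927 for Ri replicate 3. Ri replicate 1 was thus the library whose correlation with its own group fell furthest below that with Ga-H. The same selection, applied to each library within its own group at the ratio of the last of the 150 genes (4.79), found 32 genes low in Ri replicate 2 and 4 low in Ri replicate 3. In the 9 libraries of the other groups it found between 0 genes, in Ga-H replicate 3, and 16 genes, in Ga-L replicate 1. In the opposite direction, 102 genes were high in Ri replicate 1 by the same ratio, against 13 and 31 in Ri replicates 2 and 3 and between 0 and 54 in the other groups. The comparisons of NM, Ga-H and Ga-L below used no Ri library, except where a fit is said to include them. Ri replicate 1 otherwise enters these comparisons only through the choice of the 150 genes.

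**Figure D1:**
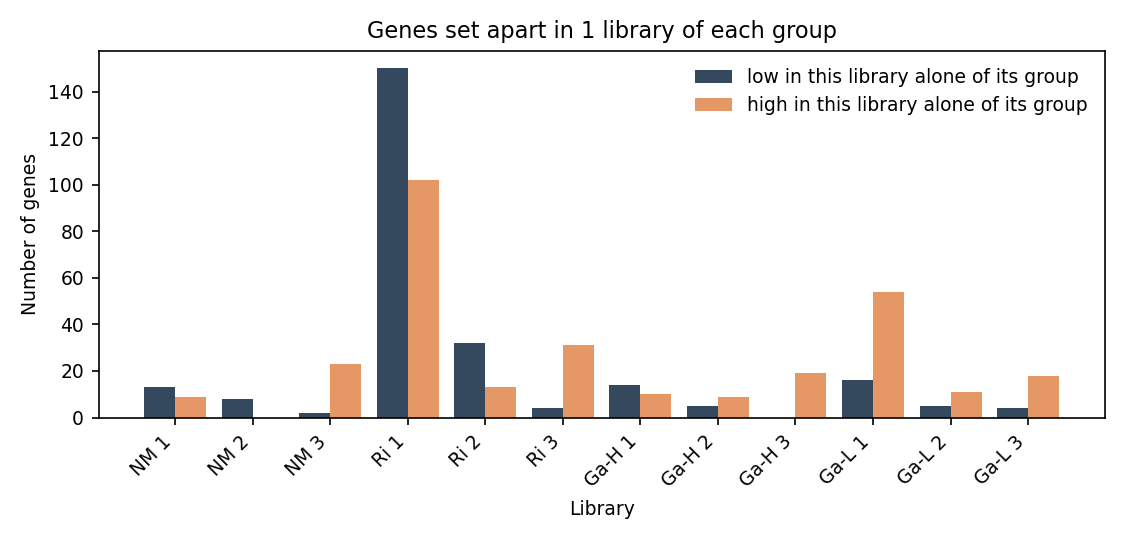
Number of genes that were low (dark bars) or high (light bars) in 1 library alone of its group, at or beyond the ratio of 4.79 that bounds the 150 genes. The bars for Ri replicate 1 reach 150 by the choice of the genes and 102 in the opposite direction; no other library passes 32 low or 54 high genes.

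The genes were moderately abundant where they were present. Their median level was 19.9 FPKM in Ri replicate 2 and 17.3 FPKM in Ri replicate 3, and 1.56 FPKM in Ri replicate 1. Together they took 0.938% and 0.73% of all counts in Ri replicates 2 and 3 and 0.0877% in Ri replicate 1. The ratio had a median of 7.56 and a maximum of 193, and 53 genes had a ratio of 10 or more. Ri replicate 1 still held transcript of most of them. It listed 7 of the 150 at 0, and 20 had 3 counts or fewer there.

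At the top of the ranking, Glyma.17G147600.Wm82.a2.v1 was at 156.28 and 50.1 FPKM in Ri replicates 2 and 3 and at 0.16 FPKM, from 2 counts, in Ri replicate 1. Per library total this is a ratio of 952 for Ri replicate 2, with a 95% Clopper-Pearson interval from 263 to 7870, and of 305 for Ri replicate 3, with an interval of 84.1 to 2520. Such intervals cover counting error only. The next gene, Glyma.07G178300.Wm82.a2.v1, was at 54.14 and 15.14 FPKM and had no count in Ri replicate 1, at least 168-fold and 46.9-fold lower against a floor of 3 counts. At the edge of the set, Glyma.19G158100.Wm82.a2.v1, the last gene taken, was at 51.88 and 41.95 FPKM against 8.65 FPKM in Ri replicate 1. Glyma.13G270100.Wm82.a2.v1, the first one left out, was at 174.08 and 140.0 against 29.17 FPKM, and its ratio of 4.78 was almost the same. The boundary of the set is thus a point on a continuous ranking.

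The most abundant of the genes was Glyma.10G192900.Wm82.a2.v1. It stood at 424.23 and 372.92 FPKM in Ri replicates 2 and 3, 45.25 FPKM in Ri replicate 1, 138.57, 61.62 and 159.53 FPKM in NM, 217.94, 332.74 and 185.57 FPKM in Ga-H, and 112.67, 161.86 and 159.83 FPKM in Ga-L. Every other library lay between Ri replicate 1 and the other Ri libraries. Next came Glyma.13G323800.Wm82.a2.v1, at 381.69 and 209.31 FPKM in Ri replicates 2 and 3 and 38.43 FPKM in Ri replicate 1. Its NM libraries, from 9.96 to 16.14 FPKM, were below Ri replicate 1, and so were its Ga-L libraries, from 20.11 to 25.9 FPKM. Its Ga-H libraries spread from 19.73 to 95.87 FPKM.

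Outside the Ri group the 150 genes were not uniformly high, so Ri replicate 1 was not the only low library of the series. Their median level was 2.75, 2.48 and 4.25 FPKM in NM replicates 1 to 3. The Ga-H libraries had medians of 6.58, 8.97 and 7.33 FPKM, and the Ga-L libraries of 3.51, 2.71 and 3.78 FPKM. The mean of these medians was 3.15 ± 0.954 FPKM in NM (SD, n = 3), 3.33 ± 0.559 in Ga-L and 7.62 ± 1.22 in Ga-H. This last group therefore lay apart from both other groups, and NM and Ga-L overlapped. All 9 medians lay above that of Ri replicate 1 and below those of Ri replicates 2 and 3. Over all 19343 genes at 5 FPKM in Ri replicates 2 and 3, the library medians ran only from 12.3 to 14.2 FPKM across all 12 libraries.

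**Figure D2:**
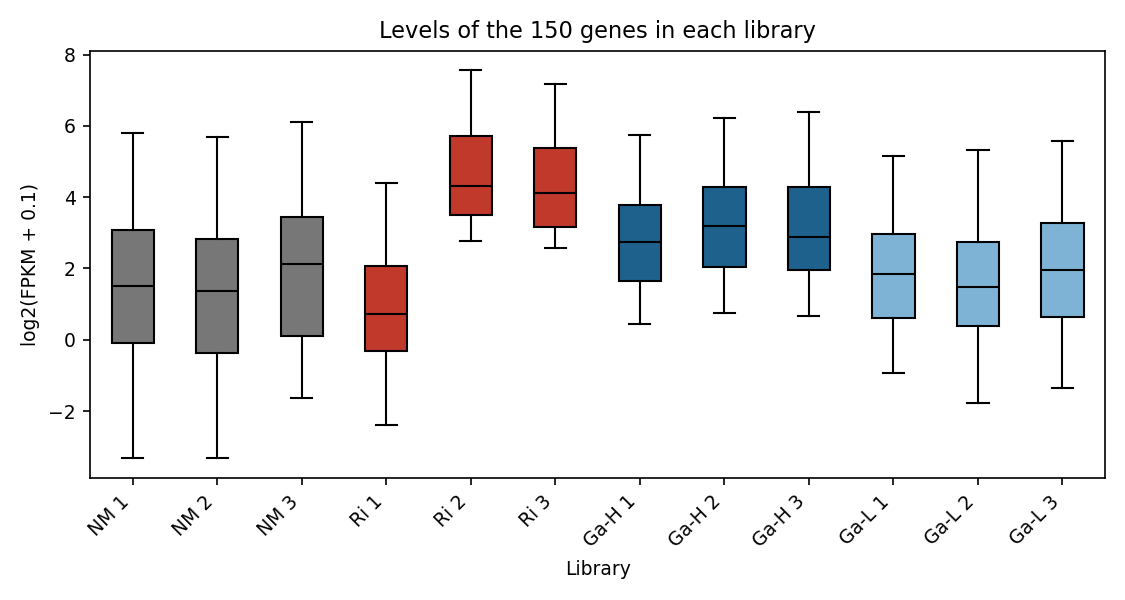
Levels of the 150 genes in each of the 12 libraries on log2(FPKM + 0.1); boxes span the quartiles, lines mark the medians and whiskers the 5th and 95th percentiles. The Ri libraries differ by the choice of the genes; among the others, the 3 Ga-H libraries have the highest medians (6.58 to 8.97 FPKM).

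In single genes, Ri replicates 2 and 3 were usually the highest of the series. Both exceeded all 9 libraries of the other groups in 122 of the 150 genes, compared with 18.2% of the 19343 genes at 5 FPKM. Ri replicate 1 was below all 9 in 71 of the 150 genes, compared with 8.53% of the 19343. It lay within or above the range of those libraries in the other 79. Because the rule asked for high Ri replicates 2 and 3 and a low Ri replicate 1, these counts describe the set and support nothing. By group mean, NM stood at a median of 17.3% of the mean of Ri replicates 2 and 3, Ga-L at 15.9% and Ga-H at 36.2%.

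The genes were then sorted by whether each group's mean on log2(FPKM + 0.1) was nearer to Ri replicate 1 or to the mean of Ri replicates 2 and 3. Ga-L was nearer to Ri replicate 1 for 125 genes, NM for 112 and Ga-H for 57. For 53 genes Ga-H alone was nearer to Ri replicates 2 and 3. For 47 genes no group was, and for only 13 genes were NM, Ga-H and Ga-L all nearer to them. In 12 of these 13, Ri replicate 1 was below all 9 libraries of the other groups, which the choice of the genes and of the class largely fixed. The exception is Glyma.03G025000.Wm82.a2.v1, which was listed at 0 in NM replicate 1 and Ga-H replicate 1 as well. In the 150 genes ranked next by the ratio, the classes of 53, 47 and 13 had 43, 46 and 19 genes as their counterparts.

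The 2 largest classes had nearly the same level in uncolonized roots and differed in Ga-H. In the class of 53, the median level was 1.75, 1.37 and 2.43 FPKM in the NM libraries, 7.67, 10.2 and 7.36 in Ga-H, and 2.2, 1.87 and 2.59 in Ga-L. The class of 47 had medians of 1.72, 1.35 and 1.96 FPKM in NM and 3.93, 4.65 and 6.39 FPKM in Ga-H, against 21 and 22.2 FPKM in Ri replicates 2 and 3 and 2.67 FPKM in Ri replicate 1. In the class of 13, medians ran from 5.56 to 16.8 FPKM in the 9 other libraries and stood at 17.2 and 12.9 FPKM in Ri replicates 2 and 3, with 1.13 FPKM in Ri replicate 1. A further 16 genes had both NM and Ga-H, but not Ga-L, nearer to Ri replicates 2 and 3, with medians of 7.62 to 12.3 FPKM in NM and 3.4 to 5.67 FPKM in Ga-L. The classes were cut from these values, so their levels are a description. Among the rest, 11 genes had both G. aggregatum groups nearer, 9 had NM alone and 1 had Ga-L alone.

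**Figure D3:**
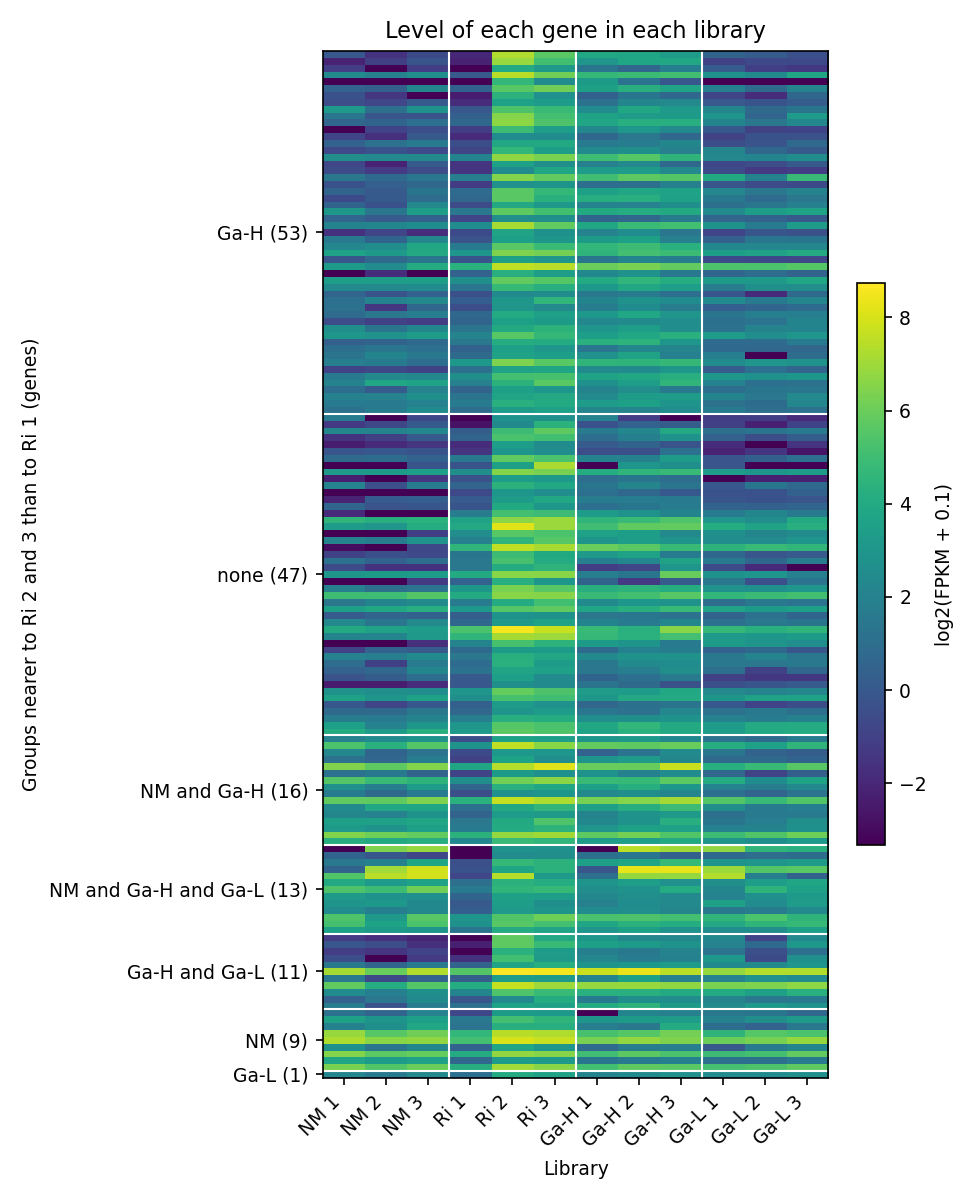
Level of each of the 150 genes (1 line each) in the 12 libraries, on a colour scale of log2(FPKM + 0.1), sorted into classes by which groups lay nearer to Ri replicates 2 and 3 than to Ri replicate 1. Ga-L lies nearer to Ri replicate 1 in 125 lines and NM in 112, and Ga-H is intermediate in the class of 53 genes at the top.

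Roots with high G. aggregatum colonization were compared with uncolonized roots to see whether the genes differ where a fungus other than R. irregularis is present. Of the 150 genes, 144 passed the low-count filter over the NM, Ga-H and Ga-L libraries together and were tested. The filter does not ask for counts in every group, so a gene high in 1 group alone can pass. In Ga-H, 66 of them were higher than in NM and 2 were lower, in the quasi-likelihood test of edgeR, at an adjusted p of 0.05 (Benjamini-Hochberg) over all 35822 genes tested. Among all tested genes, 8.49% were higher and 3.88% lower, and among those at 5 FPKM in Ri replicates 2 and 3, 10.2% and 3.89%. The median log2 fold change of the 144 genes was 1.06, with quartiles of 0.5 and 2.52, against -0.01 for all tested genes. Without any filter, all 3 Ga-H libraries exceeded all 3 NM libraries in 84 of the 150 genes and were below them in 5, compared with 22.7% and 9.06% of the 19343 genes. The 2 genes that fell became 1 without NM replicate 1, NM replicate 3, Ga-H replicate 1, Ga-H replicate 2 or Ga-L replicate 3, and 4 without Ga-H replicate 3. When the Ri libraries were added to the fit, so that the spread within Ri entered the estimate, 20 genes were higher and 1 lower. Calls over all tested genes, in either direction, went from 12.4% to 8.12%.

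The largest rise in Ga-H was that of Glyma.12G131400.Wm82.a2.v1. In NM it was at 0.03, 0 and 0.5 FPKM, in Ga-H at 63.57, 50.46 and 28.21 FPKM and in Ga-L at 22.08, 29.04 and 24.19 FPKM. All 6 G. aggregatum libraries were far above NM, and Ri replicate 1, at 23.61 FPKM, lay within the range of Ga-L, while Ri replicates 2 and 3 were at 189.28 and 144.05 FPKM. The NM libraries held 5 counts in all and the Ga-H libraries 1484, which is 310-fold per library total (95% Clopper-Pearson interval 133 to 957). On the log2 scale it rose by 8.13 (SE 0.59, adjusted p = 1.94e-05, edgeR). Each SE given with an edgeR change is the size of that change divided by the square root of the test's F statistic. With very few counts in a group such an SE can understate the uncertainty, and the counting interval is the wider guide. Without NM replicate 3, which held all 5 counts, the gene was at least 174-fold higher in Ga-H against a floor of 3 counts per library.

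A similar pattern at a lower level was seen for Glyma.13G307900.Wm82.a2.v1. It was at 0.17, 0 and 0 FPKM in NM and at 9.73, 7.32 and 4.24 FPKM in Ga-H, with 3.36 FPKM in Ri replicate 1. From 1 count in NM and 119 in Ga-H the difference was 124-fold (interval 21.9 to 4950), and without NM replicate 1 the gene was at least 13.8-fold higher. The rise was 6.45 on the log2 scale (SE 0.68, adjusted p = 0.000108, edgeR). This SE does not convey the width of the interval of 21.9 to 4950.

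Only 2 of the tested genes fell in Ga-H. Glyma.17G159600.Wm82.a2.v1 was at 13.3, 9.83 and 11.95 FPKM in NM, 2.47, 2.95 and 3.63 FPKM in Ga-H and 2.11, 2.06 and 3.06 FPKM in Ga-L. Both G. aggregatum groups lay below every NM library without overlap. In Ri replicates 2 and 3 it stood near the NM level, at 9.72 and 8.76 FPKM, and in Ri replicate 1 at 1.53 FPKM, below all other libraries. In Ga-H it fell by 1.99 on the log2 scale (SE 0.21, adjusted p = 0.000115, edgeR). The other gene, Glyma.19G245400.Wm82.a2.v1, was at 41.14, 30.98 and 68.33 FPKM in NM and 6.05, 7.07 and 16.8 FPKM in Ga-H. It fell by 2.26 on the log2 scale (SE 0.59, adjusted p = 0.0364, edgeR). This call was lost without Ga-H replicate 1 (adjusted p = 0.121 in edgeR), Ga-H replicate 2 (0.126), Ga-L replicate 3 (0.0533), NM replicate 1 (0.077), NM replicate 2 (0.0677) or NM replicate 3 (0.117). It was also lost without the low-count filter (0.109) and with all 12 libraries fitted (0.0965). The log2 fold change was -2.88 without Ga-H replicate 3, and the adjusted p ran from 0.0115 to 0.126 over the alternatives.

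**Figure D4:**
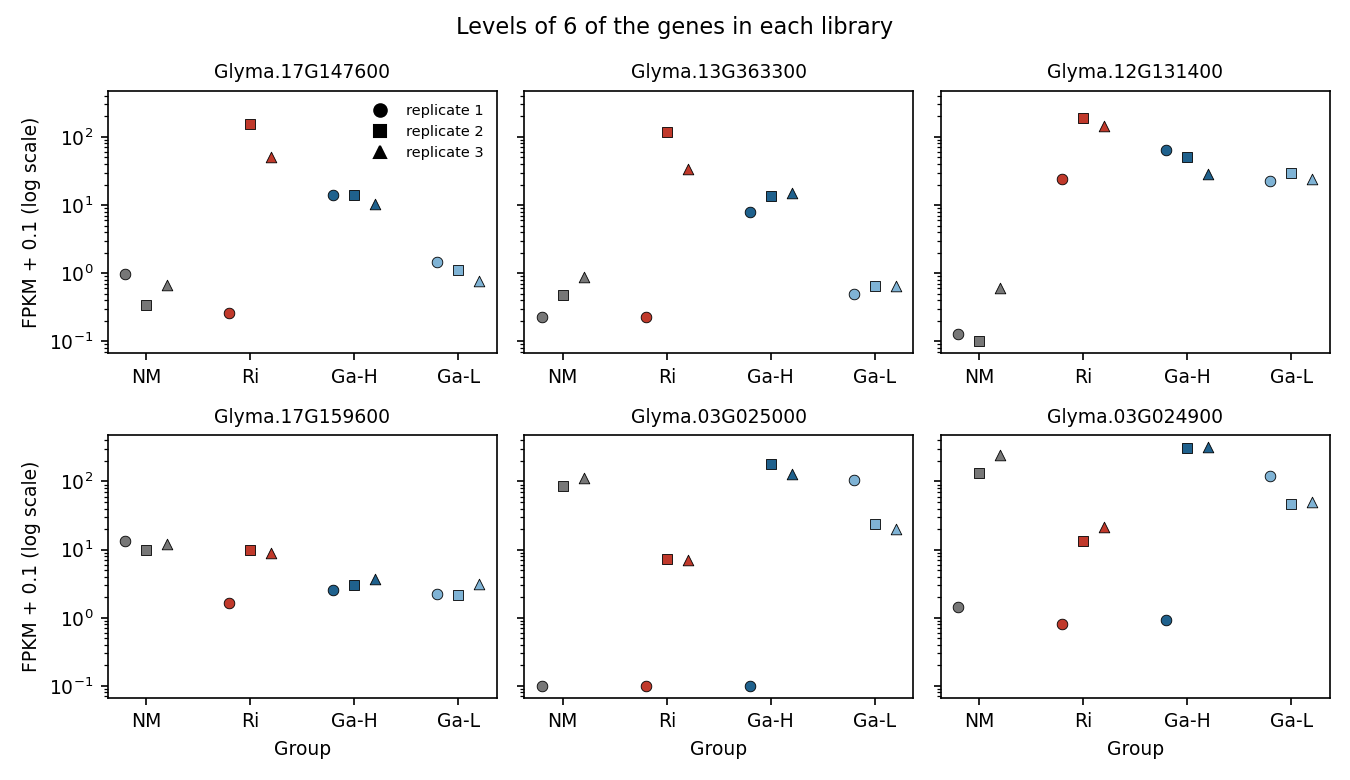
Levels of 6 of the 150 genes in each library, on a log scale of FPKM + 0.1, with 1 panel per gene and 1 symbol per replicate number. In the upper panels Ga-H lies above NM; at the lower left both G. aggregatum groups lie below NM; at the lower centre and right, replicate 1 of NM, Ri and Ga-H lies far below the other libraries of its group.

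In roots with low G. aggregatum colonization the genes were closer to uncolonized roots. Of the 144 tested, 26 were higher and 6 lower in Ga-L than in NM (edgeR quasi-likelihood test, Benjamini-Hochberg adjusted), where all tested genes gave 11.3% and 9.26%, and those at 5 FPKM in Ri replicates 2 and 3 gave 13.4% and 7.97%. The shares among the 144 genes were 18.1% and 4.17%. Their median log2 fold change was 0.01, with quartiles of -0.66 and 0.85. Levels in all 3 Ga-L libraries exceeded NM without overlap for 32 of the 150 genes and were below it for 21, compared with 19.7% and 21.9% of the 19343 genes. The higher genes were 17 when NM replicate 2 was left out. The lower genes numbered 3 without Ga-L replicate 2, 10 without Ga-L replicate 3 or NM replicate 1, and 13 without Ga-H replicate 3, which is outside the comparison but shares its spread estimate. With the Ri libraries in the fit, 5 genes were higher and 1 lower. Of all tested genes 13.6% then passed in either direction, against 20.6% without Ri.

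The comparisons of Ga-H and Ga-L with NM share the NM libraries and are not independent. In Ga-L, too, Glyma.12G131400.Wm82.a2.v1 rose most, with 777 counts in Ga-L and 5 in NM, which is 165-fold (interval 70.4 to 509). It rose by 7.30 on the log2 scale (SE 0.61, adjusted p = 3.12e-05, edgeR). The rise was at least 92.3-fold when NM replicate 3 was left out. Next was Glyma.10G195400.Wm82.a2.v1, at 0, 0 and 0.22 FPKM in NM, 9.42, 7.5 and 5.82 FPKM in Ga-L and 9.32, 7.33 and 2.94 FPKM in Ga-H. All 6 G. aggregatum libraries lay above NM, as did Ri replicate 1, at 4.05 FPKM. Its NM libraries held 1 count and its Ga-L libraries 98, which is 104-fold (interval 18.2 to 4150), and the rise was at least 11.6-fold when NM replicate 3 was left out. On the log2 scale it rose by 6.27 (SE 0.78, adjusted p = 0.000259, edgeR).

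Among the genes that were lower in Ga-L, Glyma.17G159600.Wm82.a2.v1, described above, fell by 2.23 on the log2 scale (SE 0.22, adjusted p = 4.43e-05, edgeR). Glyma.02G148200.Wm82.a2.v1 was at 0.76, 1.08 and 1.93 FPKM in NM, 0.4, 0.29 and 0.29 FPKM in Ga-L and 1.4, 2.01 and 3.06 FPKM in Ga-H. Ga-L lay below both other groups without overlap, and below Ri replicate 1, at 0.96 FPKM. Compared with NM it fell by 1.88 on the log2 scale (SE 0.49, adjusted p = 0.0214, edgeR). The call was lost without Ga-L replicate 2 (adjusted p = 0.086 in edgeR), Ga-L replicate 3 (0.0691) or NM replicate 3 (0.0734), with all 12 libraries fitted (0.168), and with limma on log2(FPKM + 1) with the filter (0.0524) or without it (0.065). The adjusted p ran from 0.00874 to 0.168 over the alternatives.

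To ask whether these genes follow the level of colonization by 1 fungus, Ga-H was set directly against Ga-L. Of the 144 genes tested, 50 were higher in Ga-H and 0 were lower (edgeR quasi-likelihood test, Benjamini-Hochberg adjusted), where all tested genes gave 2.93% higher and 3.35% lower. Among the genes at 5 FPKM in Ri replicates 2 and 3 these shares were 3.3% and 3.83%. At an unadjusted p under 0.05, 89 of the 144 genes were higher and 1 was lower in edgeR. In DESeq2, with all 150 genes in the fit, 65 were higher and 0 lower after adjustment, and 90 and 1 at an unadjusted p under 0.05. Of all genes in its fit, DESeq2 called 7.24% in either direction after adjustment, against 6.28% in edgeR. The share of all genes at an unadjusted p under 0.05 was not taken. The median log2 fold change was 1.12, with quartiles of 0.58 and 1.74, against 0 for all tested genes. Without any filter, all Ga-H libraries exceeded all Ga-L libraries in 92 of the 150 genes and were below them in 0, compared with 21.5% and 11.1% of the 19343 genes. Among the 150 genes ranked next by the ratio, of which 149 were tested, 24 were higher in Ga-H than in Ga-L and 0 lower. Compared with NM, 55 of those next genes were higher and 2 lower in Ga-H, and 34 were higher and 7 lower in Ga-L.

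How many of these genes passed depended on single libraries. The count of 50 fell to 28, 29 and 29 without Ga-H replicates 1, 2 and 3, to 12 without Ga-L replicate 2 and to 33 without Ga-L replicate 3. Calls over all tested genes fell as well, from 6.28% in either direction to 1.38%, 2.69%, 2.99%, 0.629% and 2.55% in the same order. The median log2 fold change of the tested genes of the set stayed between 1.01 and 1.29 with any of the 9 libraries left out. With the Ri libraries in the fit, no gene of the set passed, and 0.84% of all tested genes did, against 6.28% without Ri. At an unadjusted p under 0.05 in edgeR, 39 genes of the set were higher and 0 lower. The median log2 fold change of the set was 1.17 there. The Ri values that chose the genes enter that fit, and the cause of the fall in calls was not tested.

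**Figure D5:**
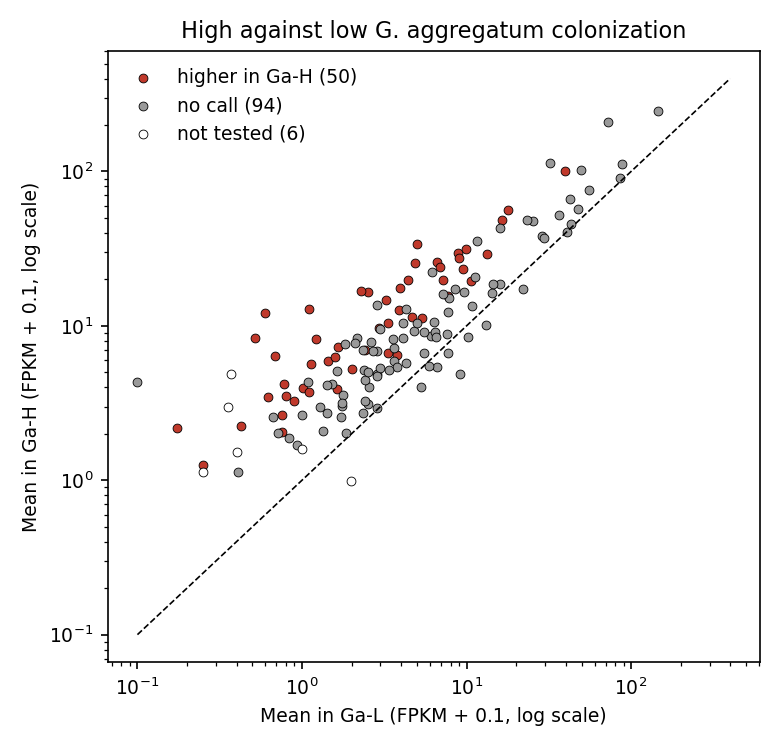
Mean level of each of the 150 genes in Ga-H against that in Ga-L (n = 3 libraries each), on log scales of FPKM + 0.1; the dashed line marks equal levels. The 50 genes called higher in Ga-H all lie above the line, and no gene was called below it.

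Glyma.13G363300.Wm82.a2.v1 shows this difference at a high ratio. It was at 7.76, 13.61 and 14.67 FPKM in Ga-H, 0.4, 0.54 and 0.54 FPKM in Ga-L and 0.13, 0.38 and 0.77 FPKM in NM. Ri replicates 2 and 3 were at 116.33 and 33.61 FPKM, and Ri replicate 1, at 0.13 FPKM, was level with the lowest NM library. Between Ga-H and Ga-L the log2 difference was 4.48 (SE 0.43, adjusted p = 0.00201, edgeR). Glyma.08G181100.Wm82.a2.v1 was at 1.86, 2.47 and 1.91 FPKM in Ga-H and 0, 0.11 and 0.11 FPKM in Ga-L, which is 32-fold from 65 and 2 counts (interval 8.51 to 270). On the log2 scale it was higher by 4.69 (SE 0.70, adjusted p = 0.00794, edgeR). Both calls were lost with all 12 libraries fitted, at an edgeR adjusted p of 0.15 and 0.0836, the highest values over their alternatives. The lowest were 5.25e-12 and 0.00117.

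Across the 3 comparisons together, 83 of the 144 genes (57.6%) passed at least once in either direction and 61 in none. Of all tested genes 26.2% passed at least once, and 27.4% of those at 5 FPKM in Ri replicates 2 and 3, as did 67 of the 149 tested among the next 150. By mean FPKM, Ga-H was the highest of NM, Ga-H and Ga-L in 127 of the 150 genes (84.7%), in 103 of the next 150 and in 37.3% of the 19343. All 3 Ga-H libraries exceeded all 6 NM and Ga-L libraries in 66 genes, or 44% of the 150, compared with 6.15% of the 19343 genes. The rule asked for high Ri replicates 2 and 3. All Ga-H libraries were below both of these in 127 of the 150 genes and in 115 of the next 150. This held for 57 of those 66 genes, which describes the choice of the set. Glyma.17G147600.Wm82.a2.v1, the gene with the highest ratio, was one of them, at 14.16, 13.94 and 10.12 FPKM in Ga-H, 1.34, 1.02 and 0.67 FPKM in Ga-L and 0.87, 0.24 and 0.56 FPKM in NM. Ga-H was higher on the log2 scale by 4.46 (SE 0.34) than NM and by 3.57 (SE 0.31) than Ga-L, with adjusted p = 1.16e-05 and 0.00103 in edgeR.

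A small number of the genes varied widely within a group. In 7 of the 150, the highest library of NM, Ga-H or Ga-L reached 5 FPKM and at least 10 times the lowest library of the same group plus 0.1 FPKM, a description added after the values were seen. This was true of 4.67% of the 150 genes, 0.667% of the next 150 and 0.279% of the 19343. Of these, 3 carry IDs of chromosome 3 and were named after their values were seen. Glyma.03G025000.Wm82.a2.v1 was listed at 0 in NM replicate 1, Ri replicate 1 and Ga-H replicate 1. It was at 85.29 and 112.21 FPKM in the other NM libraries, 178.28 and 127.66 in the other Ga-H libraries, 105.53, 23.53 and 20.03 in Ga-L, and 7.25 and 6.83 in Ri replicates 2 and 3. Ri replicate 1 thus shared its absence with 1 library of each of NM and Ga-H, and the other Ri libraries had the lowest levels among the rest.

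Its neighbour by ID, Glyma.03G024900.Wm82.a2.v1, had the same libraries low. It was at 1.32 FPKM in NM replicate 1, 0.72 in Ri replicate 1 and 0.82 in Ga-H replicate 1, and between 13.47 and 320.23 FPKM in the other 9 libraries. The third, Glyma.03G058800.Wm82.a2.v1, split the libraries in another way. It was at 0.5 and 2.09 FPKM in Ri replicate 1 and Ga-H replicate 1, at 3.43 and 1.24 in Ga-L replicates 2 and 3 and at 8.73 in Ri replicate 3, but at 43.97 to 241.54 FPKM in the other 7 libraries. In the pair of neighbours the low libraries are those numbered replicate 1 in NM, Ri and Ga-H, whereas Ga-L replicate 1 was the highest of its group for both genes. The labels say nothing of what a replicate number stands for, and the cause of the splits was not tested.

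Several of the 150 genes lay side by side. In the ordered list of all IDs, 22 of them formed 11 pairs at most 3 places apart, while the next 150 genes by the ratio held 2 such pairs. Over the 9 NM, Ga-H and Ga-L libraries, the pair just described correlated at r = 0.992 on log2(FPKM + 0.1), and the pair of Glyma.07G178300.Wm82.a2.v1, the gene at the second place of the ranking, at 0.974. The lowest correlation of the 11 pairs was -0.00612, so neighbours did not always move together. These values describe 9 libraries that fall into 3 groups, and differences between the groups enter them. Neighbouring genes can also be near-identical copies between which the expected counts divide reads, so their separate levels are uncertain.

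By the chromosome written in the ID, the genes were spread over all 20 chromosomes, with 13 on chromosome 13 at most and 3 on chromosome 4 at fewest, and 1 on a scaffold. Their lengths were on the short side of the genes from which they were drawn, a description with no test. The median gene length in the tables was 1210 bases for the 150 genes, 1372 for the next 150 and 1723 for the 19343 genes at 5 FPKM in Ri replicates 2 and 3. A single transcript was listed for 122 of them (81.3%), for 86% of the next 150 and for 59.4% of the 19343.

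The 6 genes that could not be tested had low counts in the 9 libraries outside Ri. None had more than 93 counts in any of these, and 5 of the 6 had 22 or fewer. With no low-count filter, all 150 entered the edgeR fit, and 65 were higher and 1 lower in Ga-H than in NM, 25 and 5 in Ga-L than in NM, and 46 and 0 in Ga-H than in Ga-L. Of all genes in that fit, 9.06%, 14.3% and 4.56% passed in either direction, in the same order.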

How the data were processed

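Each deposited table covers 1 library and gives an expected count and an FPKM per gene, per the file headers. Bowtie2, HISAT and RSEM are named in the submitters' processing notes, with no versions or roles. Strand handling is not given in the sources used here. Genes missing from a table were set to 0.

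The deposited FPKM values chose the genes and are given as levels. Expected counts were rounded and tested in R 4.3.3 with edgeR 4.0.16 (default low-count filter, TMM scaling, robust quasi-likelihood test, Benjamini-Hochberg adjustment). The fit held the 9 NM, Ga-H and Ga-L libraries, with 35822 genes, 6 residual degrees of freedom and no replicate block. Ri libraries were left out because their values had chosen the genes. The script was tested on simulated counts.

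Besides the edges of the ranking, the named genes were the 2 with the highest ratio, the 2 most abundant in Ri replicates 2 and 3, and per comparison at most 2 that rose and 2 that fell with the largest changes, at 1 FPKM or more in the higher group and without overlap. The genes and lists were chosen with earlier results of these data known. Lists of named pathway and marker genes could not be applied to these IDs.

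Alternatives were other scalings, no filter, DESeq2 1.42.0, limma 3.58.1 on log2 FPKM, a replicate block, other sets of libraries and other forms of the selection.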

Additional observations from a re-analysis of the deposited data

How the results depend on the processing

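The 0 genes lower in Ga-H than in Ga-L stayed at 0 in every alternative run. With all 12 libraries fitted, Ri included, the genes higher and lower numbered 20 and 1 for Ga-H against NM, 5 and 1 for Ga-L against NM, and 0 and 0 for Ga-H against Ga-L. That fit draws its spread in part from the Ri values that chose the genes. Of all tested genes it called 8.12%, 13.6% and 0.84% in either direction, in the same order. The reported fit called 12.4%, 20.6% and 6.28%. The genes lower in Ga-L than in NM, 6 in the reported fit, numbered 13 with DESeq2, 10 with limma on log2(FPKM + 0.1) or upper quartile scaling, 11 with only the compared groups fitted, and 3 among the 100 genes with the highest ratio. Of all genes tested for Ga-L against NM, 15.9% passed in either direction with DESeq2 and 21.1% with that limma fit. The shares were 22% with upper quartile scaling and 18.5% with only the compared groups. The 2 genes lower in Ga-H than in NM became 1 without the low-count filter and among those 100. Leaving out 1 library at a time gave 54 to 66 higher and 1 to 4 lower genes for Ga-H against NM, 17 to 26 and 3 to 13 for Ga-L against NM, and 12 to 56 and 0 to 0 for Ga-H against Ga-L. Calls over all tested genes, in either direction, ran from 8.05% to 13.3%, 10.7% to 24% and 0.629% to 10.9%, in the same order. The causes of these shifts were not tested.

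Over NM, Ga-H and Ga-L, libraries with the same replicate number correlated between -0.393 and 0.216 in their deviations from group means. Those with different numbers correlated between -0.249 and 0.349. Between Ga-H and Ga-L the same-number pairs correlated at 0.216, 0.143 and 0.04, and those with different numbers between -0.249 and 0.178. Same-number pairs of NM with either group ran from -0.393 to 0.0168. So few libraries can neither show nor exclude a pairing by number, and Ri was not checked. With the number as a replicate block, the genes lower in Ga-L than in NM were 16, and those higher in Ga-H than in Ga-L were 38. Calls over all tested genes, in either direction, were 16.6% and 2.58% with the block, against 20.6% and 6.28% without it. Raising the minimum from 5 to 10 FPKM kept 97 of the 150 genes, a constant of 1 FPKM in the ratio kept 128, and TMM-scaled counts in place of FPKM kept 147. Depth limits the 20 genes with 3 counts or fewer in Ri replicate 1, whose ratios rest on few counts. For those at or near 0 FPKM there, the ratio also leans on the constant of 0.1 FPKM.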
